A study of Homo sapiens with 6 samples.

Results

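The 9 genes described here form the core of the NRF2 antioxidant response: NFE2L2, KEAP1, NQO1, TXNRD1, GCLC, GCLM, SRXN1, HMOX1 and SLC7A11. They were chosen by name out of 20033 protein-coding genes, with earlier results of these data known. Every peak that overlapped a gene's span or the 10 kb on either side of it counted as lying in that gene's window. Chromatin accessibility had been profiled by ATAC-seq, in which a transposase cuts open DNA and inserts sequencing adapters there. The cells were NCI-H1703, an established human line labelled as lung squamous cell carcinoma. DLGAP1-AS2, a long non-coding RNA, had been silenced in the cells of 3 libraries, and 3 libraries came from control cells. The lists measure accessibility and not RNA, so they do not check the silencing itself. Beyond the prefix ASO in the titles of the silenced libraries, the labels name no agent, time or dose, and do not say whether the libraries of a group came from separate cultures, so the p-values below measure only the spread between these samples.

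NFE2L2 encodes NRF2, a transcription factor that pairs with small MAF proteins on antioxidant response elements. KEAP1 holds NRF2 in the cytoplasm and hands it to a CUL3 ubiquitin ligase, and oxidants or electrophiles that modify KEAP1 let NRF2 accumulate. Its targets make glutathione, reduce thioredoxin, detoxify quinones and break down heme, and mutations that keep NRF2 active are common in lung squamous cell carcinoma.

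The antioxidant response element core, written TGACNNNGC, was searched on both strands in the 300 bases from 250 before to 50 after each gene start in RefSeq's GRCh38.p14 promoter table. This table held 10 starts for 7 of the genes, and HMOX1 and SLC7A11 had no entry. The core was found in 4 of the 10 windows, belonging to GCLM, KEAP1 and TXNRD1, and in 13.3% of all 35116 windows. All 6 matches lay under peaks in all 6 libraries. The stretches are shown because the starts of these genes carried open chromatin in every library. The capitals mark the core, and each stretch reads 5′ to 3′ on the strand that carries it.

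GCLM, chr1:93909446-93909474, plus strand: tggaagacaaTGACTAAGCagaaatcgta
KEAP1, chr19:10502784-10502812, plus strand: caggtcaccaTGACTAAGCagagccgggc
KEAP1, chr19:10502807-10502835, minus strand: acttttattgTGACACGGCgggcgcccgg
TXNRD1 inner start, chr12:104286920-104286948, minus strand: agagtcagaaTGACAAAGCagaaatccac
TXNRD1 outer start, chr12:104215670-104215698, plus strand: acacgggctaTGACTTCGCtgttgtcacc
TXNRD1 outer start, chr12:104215761-104215789, minus strand: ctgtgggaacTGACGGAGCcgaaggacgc

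The core of GCLM began 34 bases before its start and the first core of KEAP1 began 31 bases before its inner start. Both were TGACTAAGC, a 9-base sequence present in 0.103% of all windows, and the 2 stretches shared a run of 13 identical bases. The core before the inner start of TXNRD1, 102 bases upstream, matched that of GCLM at 8 of 9 bases. The looser core TGANNNNGC, which contains the stricter one, was present in 6 of the 10 windows and in 41.8% of all windows. The AP-1 sequence TGANTCA was in 0 of the 10 windows and in 7.71% of all windows. A match describes the letters and shows no binding.

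The 250 bases upstream of GCLM and NQO1 are printed because the peaks of all 6 libraries covered them from end to end. In GCLM the capitals mark the core on the opposite strand, and in NQO1 they mark a match to the looser core, also on the opposite strand. The GCLM sequence was 72.4% G or C and the NQO1 sequence 61.6%.

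GCLM, chr1:93909431-93909680, minus strand: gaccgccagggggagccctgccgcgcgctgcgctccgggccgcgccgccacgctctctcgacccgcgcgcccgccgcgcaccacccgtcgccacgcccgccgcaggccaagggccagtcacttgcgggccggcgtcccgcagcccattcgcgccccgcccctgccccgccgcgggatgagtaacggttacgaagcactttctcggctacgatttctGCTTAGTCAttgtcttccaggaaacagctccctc
NQO1, chr16:69726561-69726810, minus strand: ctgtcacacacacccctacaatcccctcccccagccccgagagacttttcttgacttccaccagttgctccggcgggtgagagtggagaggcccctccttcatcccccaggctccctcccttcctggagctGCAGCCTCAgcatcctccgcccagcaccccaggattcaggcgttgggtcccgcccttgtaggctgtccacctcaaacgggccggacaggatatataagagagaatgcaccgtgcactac

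The libraries differed in the lists they gave. Each list held between 91346 and 170882 peaks, with the fewest in control replicate 2, and the number of reads behind them is unknown. The smallest local background in a list, which stands in for depth, was lowest in silenced replicate 3 (0.237) and highest in control replicate 2 (0.464). The weakest peaks had a height of 2 in 5 libraries and of 3 in control replicate 2. Height here is the authors' pileup, the coverage at the peak. A height under 4 was found in 2.46% of the peaks of control replicate 2 and in 48.1% to 52.1% of those of each other library. The squamous label was checked by peaks over the starts of 17 marker genes, of which 5 had one in all libraries and 6 in none. SOX2 had one in 6 libraries and TP63 in 1, while KRT5, KRT6A, DSG3 and DSC3 had none. Of the markers of other lung cells, NKX2-1 and NEUROD1 had a start peak in 6 libraries, so the squamous identity was not borne out by these markers beyond SOX2. Of the leukocyte markers PTPRC had no start peak and CD3E a peak in 3 libraries. Of the fibroblast markers COL1A1 had one in 6 libraries and LUM in 1, and the endothelial marker PECAM1 had one in 2. For CD3E, COL1A1, LUM and PECAM1 this was a peak within 1 kb of a span end.

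All 9 genes had a peak at a start in all 6 libraries. Among the 7 genes in the promoter table this was 7 of 7, and over all 15842 protein-coding genes in it 56.2% had such a peak in all 6 libraries. For HMOX1 and SLC7A11 a region within 1 kb of either end of the span was taken. Overlapping peaks of the 6 lists were merged into regions, and 13 regions lay at starts or span ends of the 9 genes, 11 of them called in all 6 libraries. The other 2, at the lower span end of SLC7A11, were called in control libraries only, 1 in control replicates 1 and 3 and 1 in control replicate 1, each at a height of 3. The account below is of the 11. To place them, each region called in all 6 lists was ranked by the authors' fold enrichment over local background among the 37284 such regions of the same library, and the rank was written as a percentile. None of the 11 had heights that separated the silenced from the control libraries, and in 11 of 11 silenced replicate 3 was the lowest. That library was the lowest in 74.0% of all regions called in 6 libraries.

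**Figure D1:**
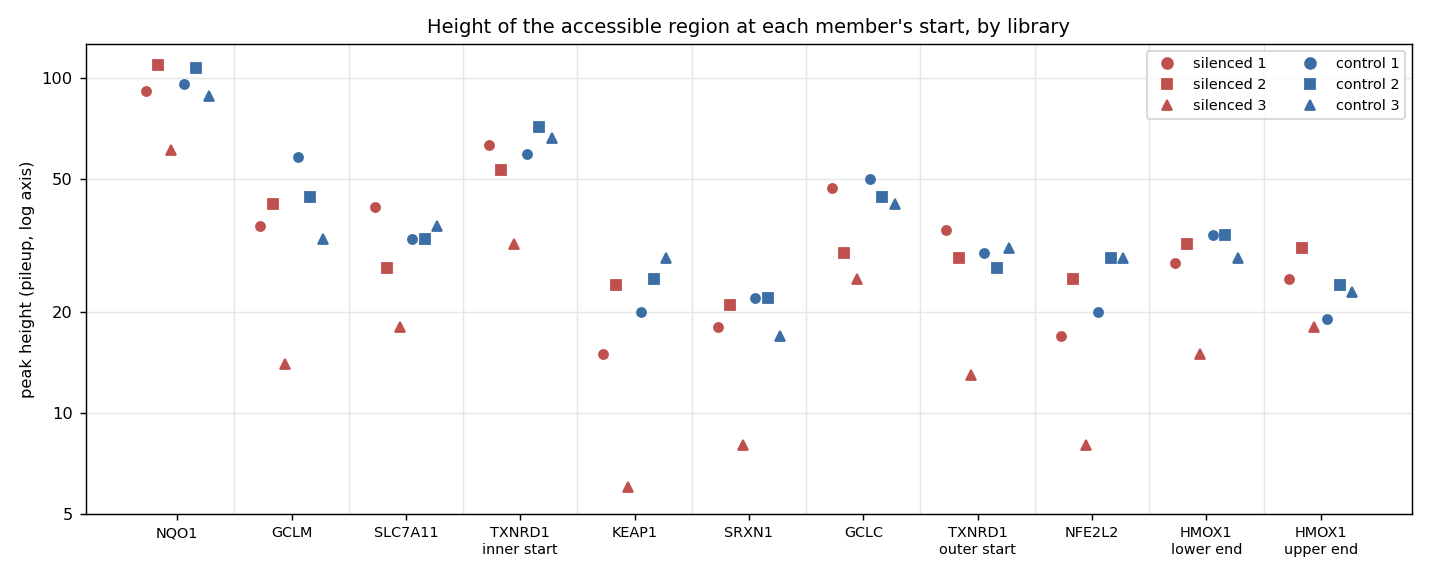
Peak height (authors' pileup, log axis) of the 11 regions at the members' starts or span ends that were called in all 6 libraries, with 1 point per library, silenced in red and control in blue. NQO1 is tallest in every library, and the red triangles of silenced replicate 3 lie lowest at each region.

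NQO1 encodes a quinone reductase and is a widely used readout of NRF2. The region over its start, chr16:69726274-69727130, reached heights of 91, 109 and 61 in silenced replicates 1, 2 and 3 and of 96, 107 and 88 in control replicates 1, 2 and 3. The 2 groups overlapped, and silenced replicate 3 stood below the other 5 libraries. By height it lay at the 97.5 ± 0.451 percentile of shared regions (SD, n = 6), and by fold enrichment at the 87.2 ± 4.45 percentile (SD, n = 6). The region also overlaps NQO1-DT, a transcript that runs the other way. One further region inside NQO1, chr16:69712969-69713422, was shared by all libraries, with heights of 10, 9 and 6 in silenced and 11, 14 and 12 in control replicates 1, 2 and 3. Here every silenced library lay below every control library in height, though not by fold percentile. The heights of the groups did not overlap in 2 of the 30 shared regions of the 9 windows, this one and one inside TXNRD1, and in 8.95% of all shared regions.

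GCLM and GCLC encode the modifier and catalytic subunits of glutamate-cysteine ligase, the rate-limiting enzyme of glutathione synthesis. Their start regions ranked differently by fold enrichment. GCLM, at chr1:93909316-93910107, had heights of 36, 42 and 14 in silenced and 58, 44 and 33 in control replicates 1, 2 and 3. The control libraries reached higher, but 33 in control replicate 3 lay below 36 and 42 in the silenced ones, so the groups overlapped. GCLC, at chr6:53544466-53545261, had heights of 47, 30 and 25 in silenced and 50, 44 and 42 in control replicates 1, 2 and 3. Silenced replicate 1 lay within the control values and the other 2 silenced libraries below them. By fold enrichment GCLM lay at the 83.3 ± 12 percentile (SD, n = 6) and GCLC at the 44.8 ± 17.7 percentile (SD, n = 6). By height percentile the 2 regions did not differ beyond their spread over libraries. GCLC lay at 82.4 ± 6.50 and GCLM at 79.1 ± 7.89 (SD, n = 6 for each).

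The strongest region near GCLC was not at its start. It lay 3010 bp upstream, at chr6:53547789-53548433, with heights of 96, 88 and 37 in silenced and 72, 91 and 90 in control replicates 1, 2 and 3. This region was the strongest of its window in all 6 libraries, at the 86.3 ± 4.05 percentile of fold enrichment (SD, n = 6). The 2 groups overlapped in height.

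SLC7A11 encodes the cystine transporter xCT, which brings in the cysteine needed for glutathione. Its region at a span end, chr4:138241408-138242730, had heights of 41, 27 and 18 in silenced and 33, 33 and 36 in control replicates 1, 2 and 3. The silenced libraries spread on both sides of the control ones. The region lay at the 76.1 ± 7.45 percentile of fold enrichment (SD, n = 6). The other regions of this window called in all 6 libraries were low, with heights of 3 to 15.

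TXNRD1 encodes thioredoxin reductase, which keeps thioredoxin in its reduced form, and the promoter table gives it 2 starts. The region over the inner start, chr12:104286035-104287494, had heights of 63, 53 and 32 in silenced and 59, 71 and 66 in control replicates 1, 2 and 3. The region over the outer start, chr12:104215568-104216145, had 35, 29 and 13 in silenced and 30, 27 and 31 in control replicates 1, 2 and 3. The inner start was the taller in all 6 libraries, and at both starts the groups overlapped. By fold enrichment the inner start lay at the 60.5 ± 9.64 percentile and the outer at the 36.4 ± 10.5 percentile (SD, n = 6 for each). Both windows hold a stricter core, shown above.

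The other region without overlap lay 4029 bp inside TXNRD1 from the outer start, at chr12:104219305-104220311, with heights of 32, 30 and 24 in silenced and 36, 45 and 44 in control replicates 1, 2 and 3. All silenced libraries were lower in height there, but height is not adjusted for depth. By fold percentile the groups overlapped in both regions. The TXNRD1 region lay at 43.4, 28.4 and 70.0 in silenced and 44.8, 53.4 and 59.8 in control replicates 1, 2 and 3. The NQO1 region lay at 16.7, 5.61 and 15.9 in silenced and 15.9, 33.6 and 19.5 in control replicates 1, 2 and 3. By rank of fold enrichment neither region had an unadjusted limma p under 0.05.

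The strongest region by fold in the TXNRD1 window lay inside the gene, 33988 bp from the outer start, at chr12:104249517-104250017. Its heights were 25, 28 and 23 in silenced and 22, 31 and 31 in control replicates 1, 2 and 3, so here silenced replicate 3 was not the lowest library. The window as a whole held 58 regions, 9 of them called in all 6 libraries, and 27, 32 and 25 peaks in silenced against 24, 34 and 24 in control replicates 1, 2 and 3. A tall region beyond the far end of the gene, chr12:104357367-104357754, had heights of 59, 60 and 54 in silenced and 67, 55 and 60 in control replicates 1, 2 and 3. It still lay at only the 8.66 ± 11.4 percentile of fold enrichment (SD, n = 6), and its local background, implied by the authors' height and fold, was 10.2 to 19.1.

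**Figure D2:**
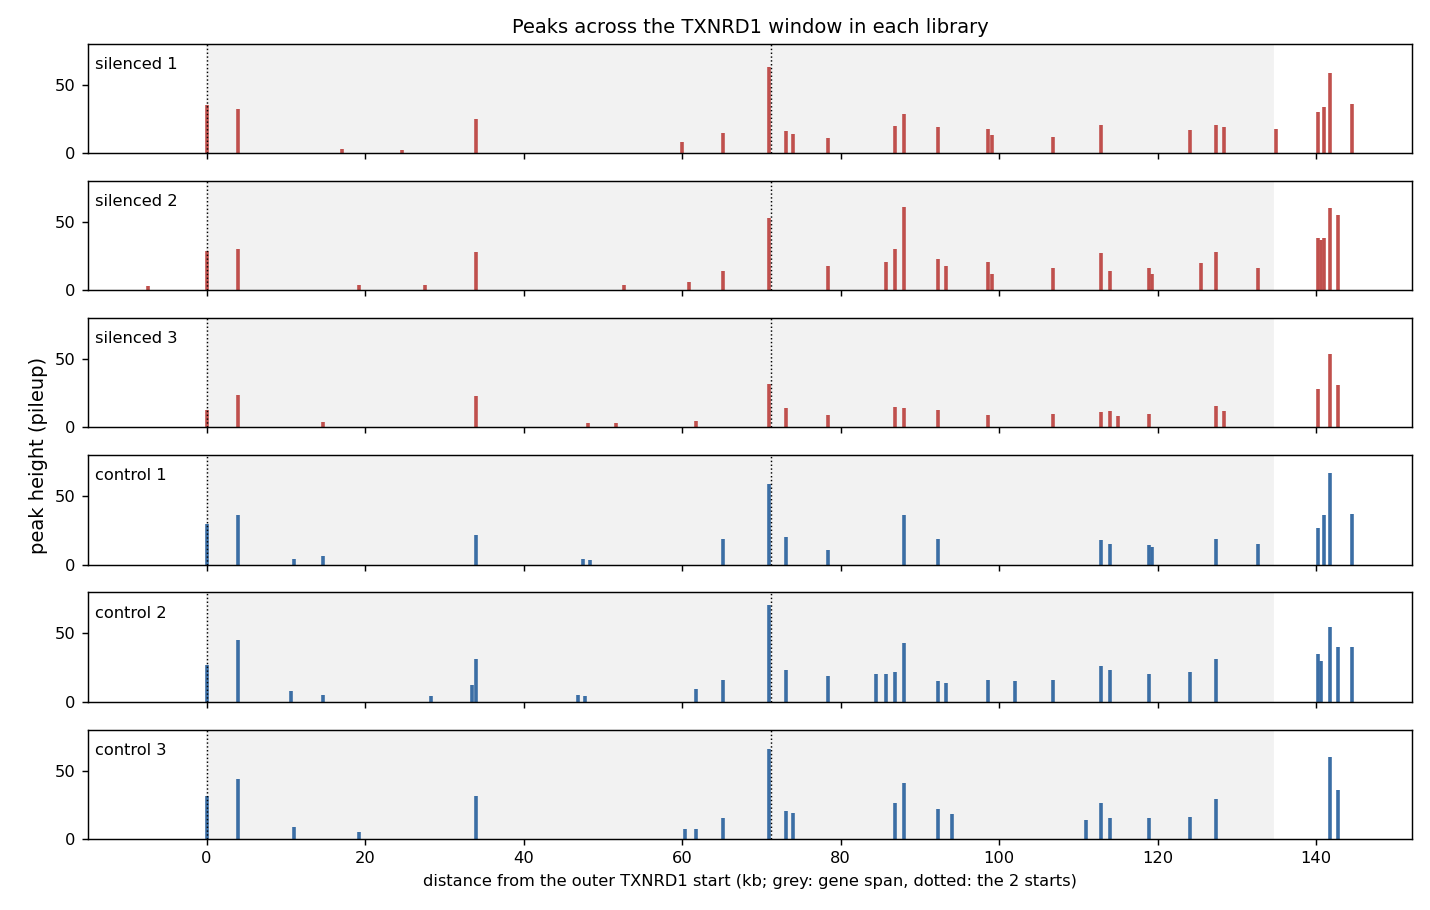
Peaks across the TXNRD1 window, 1 panel per library, drawn at their distance in kb from the outer start with the authors' pileup as height. The inner start is the tallest peak inside the gene in 5 of the 6 panels, and a group of tall peaks follows the far end of the gene in all of them.

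SRXN1 encodes sulfiredoxin, which repairs overoxidised peroxiredoxins. Its start region, chr20:652839-653799, had heights of 18, 21 and 8 in silenced and 22, 22 and 17 in control replicates 1, 2 and 3. It lay at the 54.0 ± 11.9 percentile of fold enrichment (SD, n = 6), near the middle of the shared regions. The groups overlapped, since control replicate 3 was lower than silenced replicates 1 and 2.

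HMOX1 encodes heme oxygenase, which degrades heme and is repressed by BACH1 when heme is scarce. The region at the lower end of its span, chr22:35380784-35381921, had heights of 28, 32 and 15 in silenced and 34, 34 and 29 in control replicates 1, 2 and 3. Silenced replicate 2 lay within the control values. By height this region was at the 72.6 ± 2.64 percentile, but by fold enrichment at the 28.2 ± 7.35 percentile (SD, n = 6 for each). The region at the upper end, chr22:35394849-35395712, had heights of 25, 31 and 18 in silenced and 19, 24 and 23 in control replicates 1, 2 and 3 and lay at the 2.72 ± 3.20 percentile of fold enrichment (SD, n = 6). The tallest region of the window, with heights of 29 to 58, overlaps MCM5, a replication gene next to HMOX1.

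The 2 regulators had modest start regions. KEAP1 has 2 starts in the table, and its outer start at position 10503356 on chromosome 19 had no peak in any library. The region over its inner start, chr19:10502020-10502988, had heights of 15, 24 and 6 in silenced and 20, 25 and 29 in control replicates 1, 2 and 3. Silenced replicate 2 lay between control replicates 1 and 2, and the other silenced libraries were below all controls. Its fold percentile was 59.0 ± 20.9 (SD, n = 6), the widest spread of the 11 regions. The strongest region of the KEAP1 window in all 6 libraries lay 23630 bp from the inner start, past the other end of the gene, at chr19:10478873-10479410. Its heights were 37, 49 and 25 in silenced and 42, 43 and 45 in control replicates 1, 2 and 3, and its fold percentile varied little (85.1 ± 1.97, SD, n = 6).

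NFE2L2 itself had 2 starts under 1 wide region, chr2:177263433-177265540, with heights of 17, 25 and 8 in silenced and 20, 29 and 29 in control replicates 1, 2 and 3. Silenced replicate 2 lay between control replicate 1 and the other controls. One of its starts had a peak in 6 libraries and the other in 5, the exception being silenced replicate 3. The heights above and the fold percentile belong to the tallest peak anywhere in the region. Over the 2 starts no peak was taller than 7 in silenced replicate 3 or 18 in control replicate 1. A region 9429 bp inside the gene, chr2:177254376-177255029, was the strongest of the window in all 6 libraries. Its heights were 19, 24 and 17 in silenced and 19, 29 and 28 in control replicates 1, 2 and 3, and its fold percentile was 72.5 ± 5.13 against 34.4 ± 12.1 for the start region (SD, n = 6 for each).

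**Figure D3:**
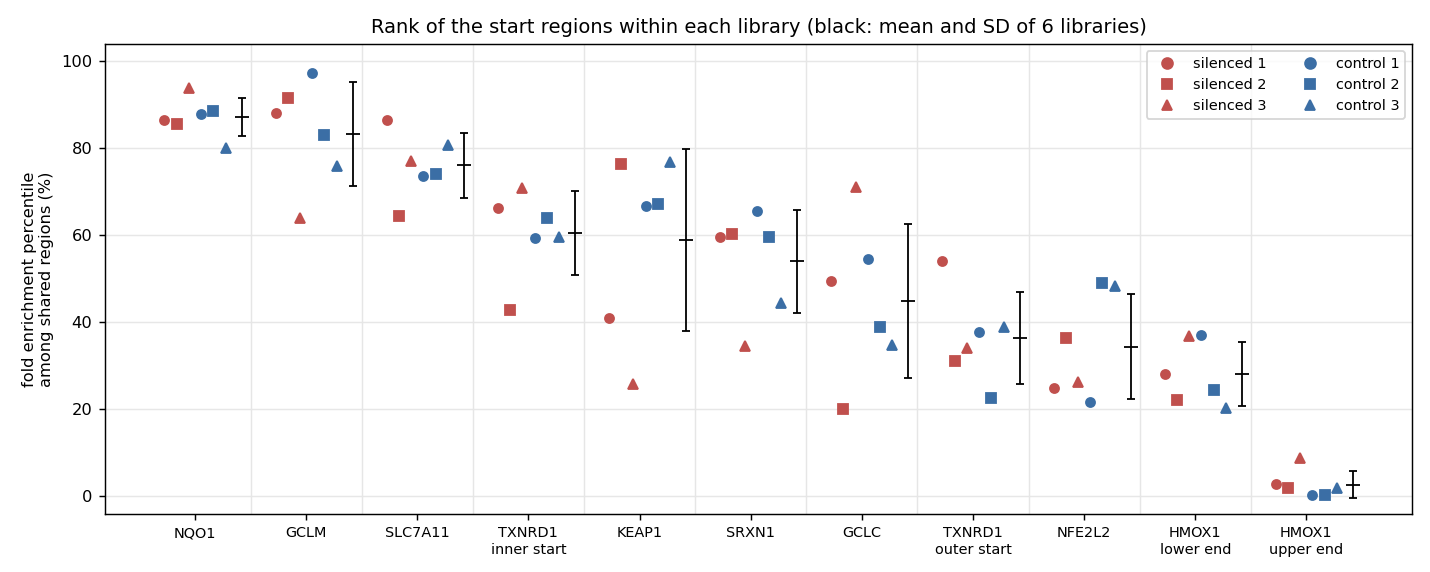
Percentile of fold enrichment of the same 11 regions among the 37284 regions called in all 6 libraries, with 1 point per library and the mean with its SD over 6 libraries in black. The order runs from NQO1 at 87.2 to the upper end of HMOX1 at 2.72, and most neighbours overlap.

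In the order of mean fold percentile the regions ran NQO1, GCLM, SLC7A11, TXNRD1 inner start, KEAP1, SRXN1, GCLC, TXNRD1 outer start, NFE2L2, HMOX1 lower end and HMOX1 upper end. Only 2 steps in that order exceeded the larger of the SDs of the neighbours, from SLC7A11 to the inner start of TXNRD1 (15.6 percentile points) and from the lower to the upper end of HMOX1 (25.5 percentile points). The other neighbours did not differ beyond their spread over libraries. At the authors' FDR of at most 1e-05 the start regions of KEAP1, SRXN1 and NFE2L2 failed in silenced replicate 3 alone, with FDR values of 0.000591, 5.34e-05 and 0.000326. The upper end of HMOX1 passed in only 2 libraries, silenced replicates 1 and 2, and its largest FDR was 0.00986 in control replicate 1.

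Fold enrichment divides the height by the local background, which differed between the windows and also inside them. In units of the smallest background of each library, the median shared region had a local background of 2.99. The 5 shared regions of the HMOX1 window had a median of 16.3, the 9 of TXNRD1 13.2, the 3 of GCLC 12.5 and the 2 of NQO1 9.20. Those of NQO1 stood at 14.7 at the start and 3.71 inside the gene, and those of TXNRD1 ran from 4.20 to 42.0. The KEAP1, GCLM, SRXN1 and NFE2L2 windows, with 2 shared regions each, lay between 3.35 and 4.73, and SLC7A11, with 3, at 2.02. Tall peaks with low fold percentiles were thus found in HMOX1 and TXNRD1, while the NQO1 start and the upstream region of GCLC ranked high on both scales.

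**Figure D4:**
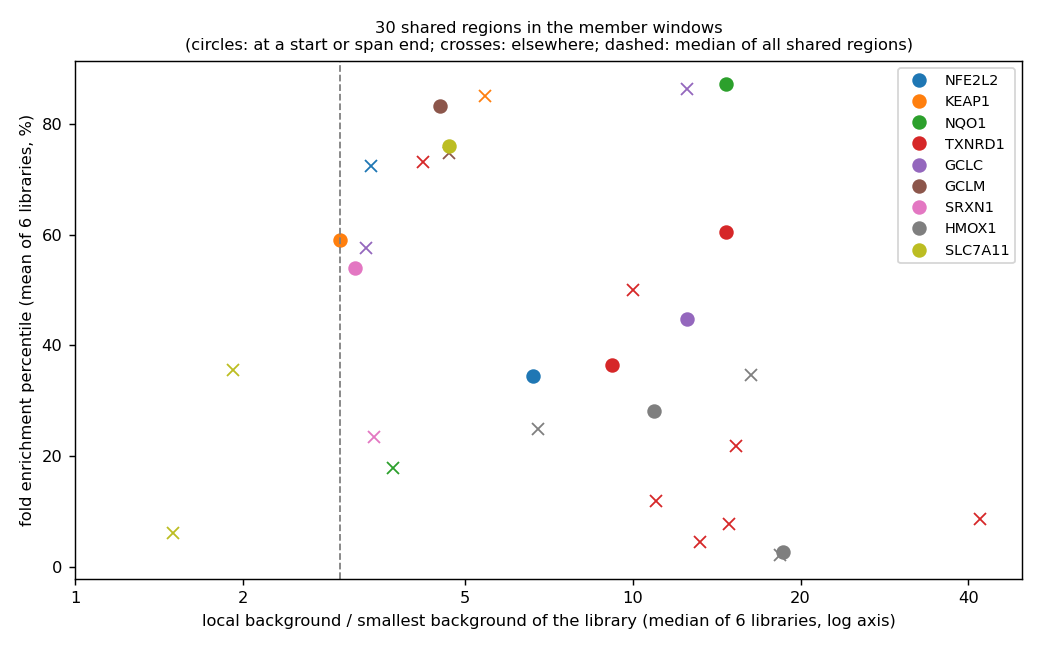
Mean fold enrichment percentile of the 30 shared regions in the 9 windows against their local background in units of the library's smallest background (log axis), both over 6 libraries. Regions of HMOX1 and TXNRD1 fill the lower right, and the NQO1 start and the upstream region of GCLC lie high at backgrounds of 14.7 and 12.5.

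Counting all peaks, the 9 windows held 153 regions, of which 30 (19.6%) were called in all 6 libraries and 73 (47.7%) in 1 library, against 7.35% and 74.1% of all 507440 regions. The 73 had a median height of 4.0, and the peaks of the 30 one of 26.0. The windows held 62, 82 and 76 peaks in silenced and 71, 75 and 73 in control replicates 1, 2 and 3. Silenced libraries averaged 73.3 ± 10.3 peaks (SD, n = 3) and control libraries 73.0 ± 2.0 (SD, n = 3), which differ by less than the spread. In the SLC7A11 window the silenced libraries held 6, 11 and 8 peaks and the control libraries 13, 9 and 13, with silenced replicate 2 above control replicate 2.

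In each direction 1 region followed the groups, a count too small to read against the rest of the genome. Of the 153 regions, 1 (0.654%) was called in all 3 silenced libraries and no control library, where 0.130% of all regions were. It lay 7502 bp from the SRXN1 start, at chr20:660493-660911, where silenced replicates 1, 2 and 3 reached heights of 6, 6 and 3. Also 1 (0.654%) was called in all 3 control libraries and no silenced library, where 0.200% of all regions were. It lay inside SLC7A11, at chr4:138221943-138222364, where control replicates 1, 2 and 3 reached heights of 5, 8 and 5. Both were low, and 3 libraries against 3 cannot give a p-value for a single region under 0.1 in an exact test. The first count became 2, 4, 3 and 2 without silenced replicate 2, silenced replicate 3, control replicate 2 and control replicate 3, and the second became 6 without control replicate 2. Without silenced replicate 3 and control replicate 2 the counts were 6 and 8. Leaving out a library loosens the rule for such a region, so higher counts follow from the rule itself. No share over all regions stands beside these counts, so they are not read as a result about the genes.

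Silencing of DLGAP1-AS2 was then compared with control by rank. For every protein-coding gene the strongest peak in its window was ranked within each library, the ranks were turned into normal scores (mean 0, so that a unit is about 1 SD across genes), and the scores were tested with limma. Of the 9 genes, 0 had an adjusted p under 0.05 and 0 an unadjusted p under 0.05, where 0% and 4.84% of the 17467 genes tested did (845 genes, 340 higher and 505 lower in silenced cells).

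The differences of the 9 genes ran both ways. TXNRD1 had the highest, 0.29 (SE 0.23, limma adjusted p = 0.974), with scores of -0.32, 0.00 and 0.43 in silenced and -0.37, -0.24 and -0.16 in control replicates 1, 2 and 3. GCLM had the lowest, -0.21 (SE 0.32, limma adjusted p = 0.979), with scores of 0.51, 0.76 and -0.17 in silenced and 1.46, 0.28 and -0.02 in control replicates 1, 2 and 3. In both genes the groups overlapped. The TXNRD1 value was 0.47 without silenced replicate 1 and 0.09 without silenced replicate 3, below GCLC at 0.26 in the same fit. GCLC differed by 0.27, NQO1 by 0.17, HMOX1 by 0.13 and SLC7A11 by 0.03, and KEAP1 by -0.09, NFE2L2 by -0.11 and SRXN1 by -0.11. With the gene span alone and no margin, KEAP1 differed by -0.50 (limma adjusted p = 0.965). The 95% intervals were wide: that of NFE2L2 ran from -0.56 to 0.35 and that of NQO1 from -0.33 to 0.67, so differences of either sign within these bounds were not resolved. The median over the 9 genes was 0.027 and that over all genes 0.011. The groups did not overlap in 0 of the 9 genes and in 9.86% of all genes. The sign depended on the processing in 8 of the 9 genes. HMOX1 alone kept its sign, but at 0.0020 without silenced replicate 3 and 0.01 without control replicate 3. In 4 of the 8, leaving out a single library changed the sign. NQO1 became -0.01 and SRXN1 0.06 without silenced replicate 3. GCLM became 0.06 without silenced replicate 3 and 0.24 without control replicate 1. SLC7A11 became -0.18, -0.02 and -0.01 without silenced replicate 1, control replicate 1 and control replicate 2.

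**Figure D5:**
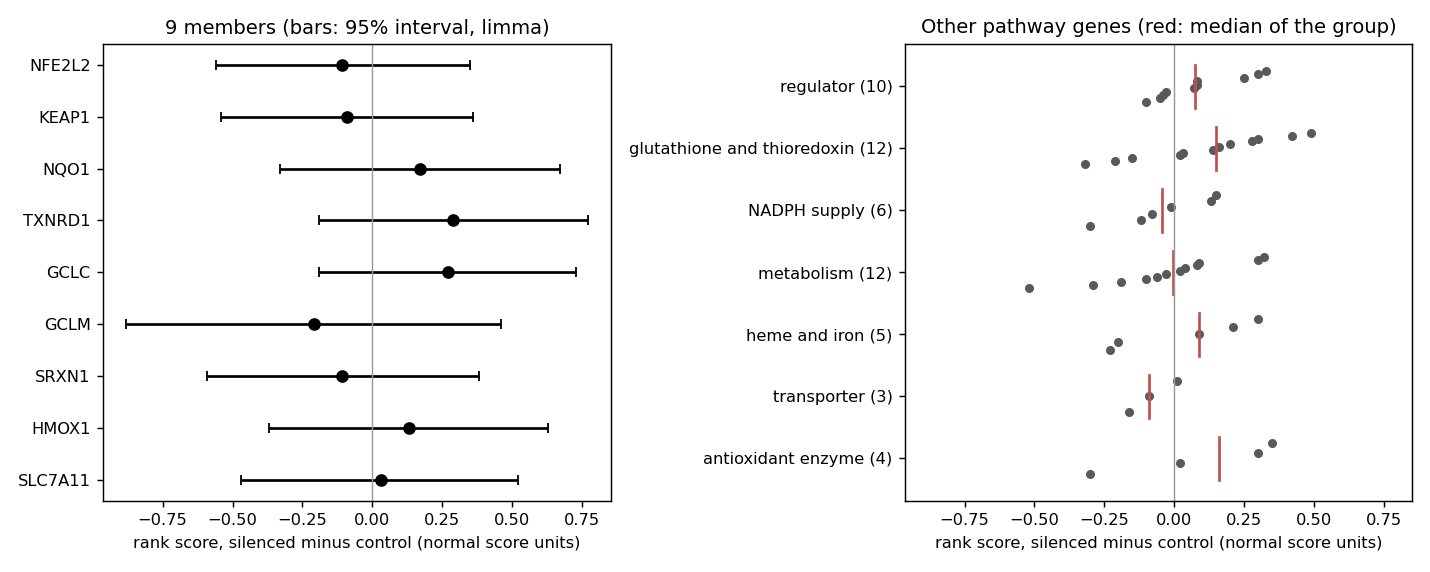
Difference in rank score of the strongest peak, silenced minus control, in normal score units, for the 9 genes with 95% intervals from limma (left) and for the other pathway genes fitted, by role, with the median of each group in red (right). All 9 intervals include 0, and the pathway genes lie between -0.52 and 0.49.

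The peak behind these scores was the same in nearly every library. It was a start region in all 6 libraries for NQO1, SRXN1 and SLC7A11 and in 5 for GCLM. For NFE2L2, KEAP1, TXNRD1, GCLC and HMOX1 it lay elsewhere in the window in every library. For HMOX1 it was the region overlapping MCM5 in 5 libraries and another region in control replicate 3.

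The 30 shared regions of the windows were tested in the same way among all 37284. None passed an adjusted p under 0.05 and 0 had an unadjusted p under 0.05 in limma, where 0% and 4.68% of all shared regions did (1746 regions). The start of KEAP1 had the lowest p among regions lower in silenced cells, with a difference of -0.59 (SE 0.31, limma adjusted p = 0.963). Its fold percentiles were 40.9, 76.5 and 25.8 in silenced and 66.8, 67.1 and 76.9 in control replicates 1, 2 and 3, and silenced replicate 2 lay inside the control range. The difference was -0.98 without silenced replicate 2, where the unadjusted limma p was under 0.05 and the adjusted p 0.758, and -0.29 without silenced replicate 3. The upper end of HMOX1 had the lowest p among regions higher in silenced cells, with a difference of 0.79 (SE 0.46, limma adjusted p = 0.963). Its fold percentiles were 2.88, 2.03 and 8.89 in silenced and 0.244, 0.255 and 2.0 in control replicates 1, 2 and 3. This was the only one of the 30 (3.33%) in which the groups did not overlap, against 10.2% of all shared regions, and the nearest values, 2.03 and 2.0, almost touched.

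Other genes of the pathway were read from a list of 56. A start peak was present in all 6 libraries in 37 of them, in some libraries in 10 and in none in 9. All 5 heme and iron genes (FTH1, FTL, BLVRA, BLVRB, FECH) and 7 of 10 regulators had one in all libraries, among them CUL3, RBX1 and BACH1. So did 5 of 6 genes that supply NADPH, with ME1, malic enzyme, at 1 library, and 9 of 14 genes of the glutathione and thioredoxin systems. The counts were 7 of 14 in quinone, carbonyl and drug metabolism, 1 of 3 among transporters and 3 of 4 among other antioxidant enzymes. The 9 without any were GPX2, GLRX, GSTM1, AKR1C1, AKR1C2, CBR3, ABCC2, ABCC3 and SOD3. GPX2 encodes a glutathione peroxidase, AKR1C1 and AKR1C2 aldo-keto reductases that are well known NRF2 targets, and ABCC2 and ABCC3 export pumps for conjugates. For 17 of the 56 a peak within 1 kb of either span end was taken. Of the 39 with an entry among the promoters, 26 had a start peak in all 6 libraries, where 56.2% of all such protein-coding genes did. In 7 of these 39 no library had a start peak, where 4297 of all 15842 such genes had none.

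In the fit over all genes 52 of the 56 could be tested, and 0 passed an adjusted p under 0.05 and 0 an unadjusted p under 0.05 in limma, with 0% and 4.84% of all genes as above. Of the 52, 30 had a higher and 22 a lower score in silenced cells, with a median of 0.028 against 0.011 over all genes. SLC3A2, the partner chain of xCT, had the smallest p among those higher, with a difference of 0.49 (SE 0.24, limma adjusted p = 0.960). Its scores did not overlap between the groups, but the difference was 0.26 without control replicate 1 and 0.02 with windows of 50 kb. AKR1B10, an aldo-keto reductase, had the smallest p among those lower, with -0.52 (SE 0.25, limma adjusted p = 0.960), again without overlap, and it was -0.27 with windows of 50 kb. The groups did not overlap in 4 of the 52 (7.69%), MAFG, SLC3A2, AKR1B10 and BLVRB, against 9.86% of all genes. By role, the median difference was 0.151 over 12 genes of the glutathione and thioredoxin systems, 0.162 over 4 other antioxidant enzymes, 0.071 over 10 regulators and 0.092 over 5 heme and iron genes. It was -0.003 over 12 genes of quinone, carbonyl and drug metabolism, -0.045 over 6 genes of NADPH supply and -0.091 over 3 transporters.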

How the data were processed

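Accessible chromatin was measured in 6 libraries of 10000 to 50000 cells each, sequenced as pairs of 150 bases, per the labels' protocol. The authors deposited 1 peak list per library. A row gives, per the file headers, a position, the fold enrichment (a ratio over local background), a p-value, an FDR (an adjusted p-value) and the pileup signal, called height here. The submitters' processing notes name Trimmomatic 0.36, Bowtie2 2.2.6, Picard 2.8.2, MACS2 2.1.1, bedtools 2.25.0 and GRCh38, without their roles. Every deposited p-value was at most 0.00987. Read totals are not given in the sources used here, so depth is unknown and levels were compared by rank within a library.

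Autosomal, X and Y peaks were merged at an overlap of 1 bp. Gene spans came from RefSeq (GRCh38.p14), as did start windows. The local background behind a peak was taken as (height + 1) / fold enrichment - 1. Rank scores of features called in all 6 lists were tested with limma 3.58.1 in R 4.3.3 (lmFit, eBayes with trend, Benjamini-Hochberg over all features, threshold 0.05), a procedure tested on simulated data. Exon, intron and UTR positions were not analysed here.

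The genes and lists were chosen with earlier results of these data known. Named were the 9 genes, their start, tallest and group-specific regions, the extreme p in each direction, and pathway genes with the smallest p in each direction or no start peak. Regions strongest by fold, role examples and genes without overlap between groups were named after their values were seen. Alternatives covered the replicate block, ranking by height or p-value, FDR and height limits, lists of equal size, window sizes, the prior and left-out libraries.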

Additional observations from a re-analysis of the deposited data

How the results depend on the processing

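Across all alternatives 0 shared regions, 0 genes and 0 pathway genes passed an adjusted p under 0.05 in limma. The numbers with an unadjusted p under 0.05 ran from 854 to 2381, 666 to 1241 and 0 to 3. The smallest region and gene counts came with an FDR of at most 1e-05, where 19371 regions and 13929 genes were tested. The largest came without silenced replicate 2, where 37284 regions and 17467 genes were tested. Silenced and control libraries with equal replicate numbers showed no shared deviation in rank scores. Correlations of their deviations ran from -0.00826 to 0.00237 over regions and from -0.029 to -0.0063 over genes. These values cannot show whether such libraries were prepared together. With the replicate block 0 regions (1772 with an unadjusted p under 0.05) and 0 genes (821) were called. Of 300 alternatives to 22 rank differences, 262 kept the sign and 38 reversed it, with none past the threshold (smallest adjusted p 0.693). Causes of the changes below were not tested.

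Regions called only in silenced libraries became 0 with no margin, with an FDR of at most 1e-05, with lists of equal size and with a height of at least 4, 6 with silenced replicate 3 and control replicate 2 both left out, and 1 to 4 without 1 library. Regions called only in control libraries became 2 with 50 kb windows, 0 with an FDR of at most 1e-05, 8 with both left out, and 1 to 6 without 1 library. Leaving libraries out loosens the rule for such regions, so the counts rise with it. The difference in members with a start peak became -1.0 at an FDR of at most 1e-05.

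For the strongest peaks, ranking by height reversed NFE2L2 (0.02), KEAP1 (0.05) and GCLC (-0.01), ranking by p-value TXNRD1 (-0.12), and 50 kb windows NFE2L2 (0.06). Leaving out both libraries reversed SRXN1 (0.09) and SLC7A11 (-0.02). Without 1 library, signs changed for NQO1 (-0.01 to 0.27), GCLM (-0.50 to 0.24), SRXN1 (-0.25 to 0.06) and SLC7A11 (-0.18 to 0.24).

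For start regions, ranking by height reversed GCLC (-0.10) and HMOX1 lower end (-0.08), and ranking by p-value GCLC (-0.11), HMOX1 lower end (-0.10) and SLC7A11 (-0.0021). An FDR of at most 1e-05 reversed the outer TXNRD1 start (-0.04) and HMOX1 lower end (-0.23). Leaving out both libraries reversed GCLC (-0.29), SRXN1 (0.12), HMOX1 lower end (-0.09) and SLC7A11 (-0.01). Without 1 library, signs changed for the outer (-6.6e-05 to 0.30) and inner (-0.16 to 0.20) TXNRD1 starts, GCLC (-0.24 to 0.46), GCLM (-0.48 to 0.14), SRXN1 (-0.29 to 0.09), HMOX1 lower end (-0.05 to 0.20) and SLC7A11 (-0.16 to 0.21).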
